A study of Homo sapiens with 12 samples.

Results

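RNA levels were compared between the 3 libraries labelled T24 shFTO and the 3 libraries labelled RT4 shNC, 6 of the 12 libraries of a study of FTO knockdown in bladder cancer cells. The 6 were taken by the names of their columns in the deposited count table, and every gene of the table entered the comparison. T24 and RT4 are established human bladder cancer cell lines, the first grown from a high-grade urothelial carcinoma and the second from a well-differentiated papillary tumour. The T24 shFTO libraries carry the treatment label "FTO knockdown" and shFTO stands in their names for a short hairpin RNA against FTO. The RT4 shNC libraries carry the treatment label "none" and the name of the control hairpin arm. Each group has 1 library labelled batch 1, 1 labelled batch 2 and 1 labelled batch 3, the same number as its replicate, and the same genotype entry, "homo". The groups differ in the cell line and the treatment of their labels at once, so differences by line and by hairpin cannot be told apart here. The libraries also go against their cell line labels in part: T24 shFTO held liver mRNAs and RT4 shNC lacked epithelial adhesion genes. RT4 shNC was nearest to RT4 shFTO but not close to it, and T24 shFTO was no nearer to T24 shNC than to RT4 shNC. The labels may therefore be wrong, and T24 and RT4 below name labelled groups, not lines whose identity is known. The labels name neither the hairpin sequence nor separate cultures behind the replicates, so the spread that p-values rest on is that between libraries and may be technical. The libraries labelled T24 shNC and RT4 shFTO, 3 each, are given only as context.

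FTO removes methyl groups from adenosine in RNA, mainly N6-methyladenosine (m6A), which other proteins write and read. The urothelium is an epithelium whose surface cells carry uroplakins and whose cells are held together by E-cadherin and keratins, and bladder cancers keep or lose this programme to different extents. The liver programme that appears below is run by factors such as HNF4A and FOXA2, which in hepatocytes turn on albumin, apolipoproteins and clotting factors.

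Messenger RNA had been selected by its poly(A) tail and sequenced with paired reads of 150 bases. Total counts were 54553356, 34281703 and 41309338 in T24 shFTO and 38761639, 102798895 and 84029429 in RT4 shNC. Mitochondrially encoded genes took 7.01% to 7.31% of the counts in T24 shFTO and 3.90% to 4.77% in RT4 shNC. Across 16205 genes, Pearson's r of log2(CPM + 1) averaged 0.997 within each group and 0.709 between them (9 pairs, 0.708 to 0.711), where CPM is a gene's count per 1000000 counts of its library. The libraries labelled T24 shFTO were about as far from the libraries labelled T24 shNC (mean r = 0.706) as from RT4 shNC, although T24 shNC bears the same line's name. RT4 shNC was nearer to RT4 shFTO, the other arm of its line's name (mean r = 0.761), than to T24 shNC (mean r = 0.729). Libraries of 1 group differed by more than sampling noise, so none looked like a copy of another, which does not show that they are separate cultures. Levels below are CPM scaled by the trimmed mean of M-values (TMM-scaled CPM), given per library or as mean ± SD over the 3 libraries of a group (n = 3 each). They are not per length, so levels of different genes are not ranked. A gene is called when its p from the quasi-likelihood F test of edgeR, adjusted by Benjamini-Hochberg over all 23070 genes tested, is under 0.05. A log2 change is T24 shFTO minus RT4 shNC.

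FTO (chr16:53703963-54121941, RefSeq GRCh38.p14) is the targeted gene. It had 25.9, 26.3 and 24.2 CPM in T24 shFTO, against 45.03, 46.9 and 46.6 CPM in RT4 shNC, with no overlap between the groups. The fitted log2 change was -0.86 (SE 0.05, adjusted p = 3.32e-11, edgeR), and by batch number it was -0.80, -0.83 and -0.94. The exact two-sided permutation test of 3 against 3 gave p = 0.1, the smallest this design allows. FTO averaged 35.2 CPM in T24 shNC and 68.9 CPM in RT4 shFTO, so the level in RT4 shNC lay between those of the 2 groups labelled shFTO.

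Most of the transcriptome differed. Of 23070 genes tested, 18490 were called (80.1%), 8624 higher (37.4%) and 9866 lower (42.8%) in T24 shFTO. With a change of at least 2-fold required as well, 11999 genes were called (52.0%), 5488 higher (23.8%) and 6511 lower (28.2%). For 18778 genes (81.4%) the 3 values of T24 shFTO lay wholly above or below the 3 of RT4 shNC. The median log2 change was -0.08 and the median size of change 1.17 on the log2 scale. Changes of at least 16-fold were called for 1772 genes that were higher and 2013 that were lower. Of the called genes, 18179 (98.3%) went the same way in all 3 batch numbers. The calls rest on these same libraries, so this agreement largely follows from them and is no separate support. At this background a call on its own separates few genes from the rest, so each gene list below is read by how many members went each way and how far.

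**Figure D1:**
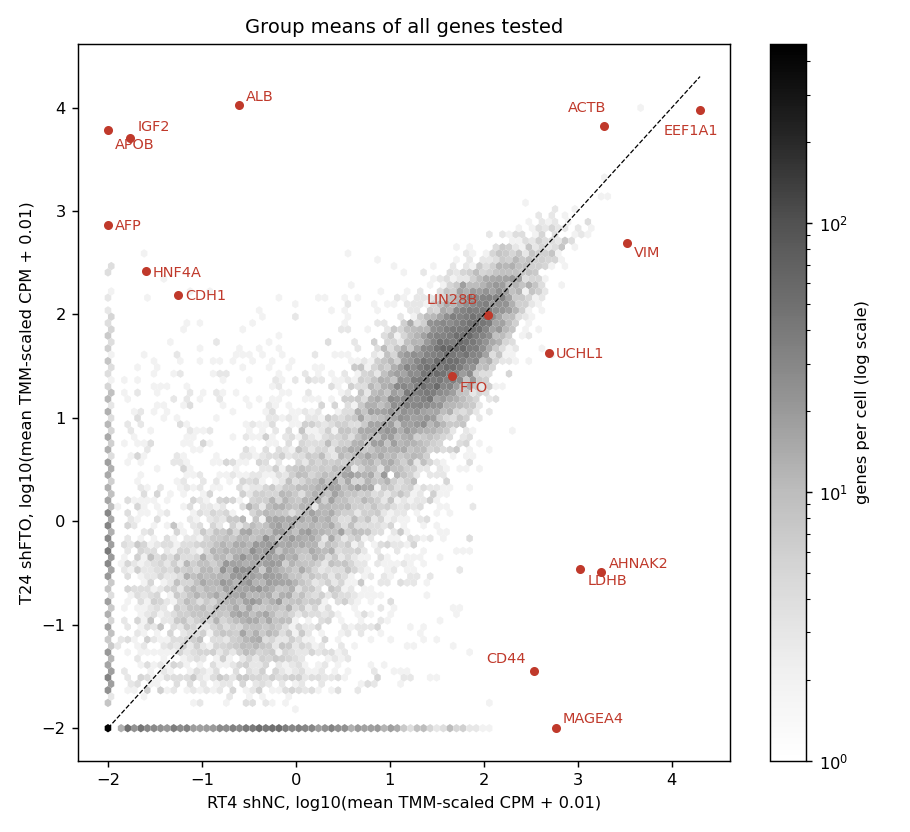
Mean level of each tested gene in T24 shFTO (vertical axis) and in RT4 shNC (horizontal axis), both as log10 of mean TMM-scaled CPM plus 0.01, with darker cells holding more genes and the dashed line marking equal levels. Liver genes such as ALB, APOB, AFP and HNF4A stand at the upper left, MAGEA4, CD44 and LDHB at the lower right, and FTO lies just under the line.

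T24 shFTO held the mRNAs of secreted liver proteins, and RT4 shNC held almost none. All 23 of 23 tested members of a hepatocyte list were higher in T24 shFTO, against 37.4% of all genes tested, with a median log2 change of 13.28. Their summed level was 30963 to 32248 CPM in T24 shFTO and 9.502 to 10.6 CPM in RT4 shNC, and 10 members had 0 counts in all 3 RT4 shNC libraries. In bulk RNA, fewer cells of a type and less RNA per cell cannot be told apart. ALB (chr4:73404287-73421482), the main protein of blood plasma, had 11027, 10236 and 10847 CPM in T24 shFTO and 0.321, 0.237 and 0.155 CPM in RT4 shNC, a log2 change of 15.54 (adjusted p = 4.70e-20). APOB (chr2:21001429-21044073), the structural protein of low-density lipoprotein, had 5886, 6016 and 6121 CPM in T24 shFTO, against 0 counts in RT4 shNC. Setting 3 counts over that group, APOB was at least 487118-fold higher. The 2 groups did not overlap for either gene, and replicates within T24 shFTO lay close together. APOA2, a protein of high-density lipoprotein, had 4563, 4588 and 4795 CPM in T24 shFTO and 0 counts in RT4 shNC (at least 377261-fold higher). AHSG, the plasma glycoprotein fetuin-A, had 3169, 2999 and 3034 CPM in T24 shFTO and 0 counts in RT4 shNC (at least 250296-fold higher). The iron carrier transferrin (TF) averaged 2493 ± 28.99 CPM in T24 shFTO and 0.575 ± 0.0614 CPM in RT4 shNC. The protease inhibitor SERPINA1 averaged 1578 ± 101 CPM in T24 shFTO and 7.26 ± 0.846 CPM in RT4 shNC. The fibrinogen chains FGA, FGB and FGG, subunits of the clot protein, averaged 300.2 ± 5.29, 211 ± 11.6 and 229 ± 4.96 CPM in T24 shFTO and 0, 0.01104 ± 0.0191 and 0.0303 ± 0.0352 CPM in RT4 shNC. ASGR2, a subunit of the hepatocyte asialoglycoprotein receptor, had 357, 328 and 342 CPM in T24 shFTO and 0 counts in RT4 shNC. HP (haptoglobin) and CPS1, the first enzyme of the urea cycle, which are abundant in adult liver, averaged 1.77 ± 0.134 CPM and 7.65 ± 0.971 CPM in T24 shFTO. T24 shNC had 0.0844 CPM of ALB and 0.0428 CPM of APOB, so both were near 0 in that group too. Of the list only CPS1 reached 10 CPM in T24 shNC, at 2878 CPM.

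**Figure D2:**
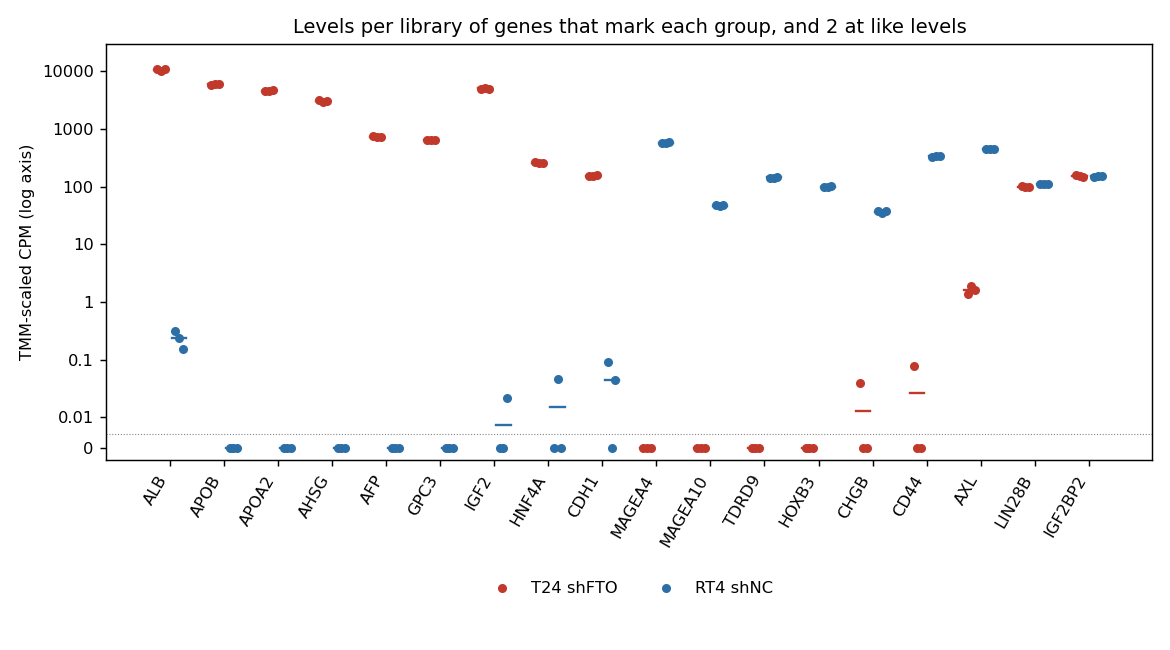
TMM-scaled CPM (log axis) of 18 genes in each of the 3 T24 shFTO libraries (red, left in each column) and the 3 RT4 shNC libraries (blue, right), with short lines at the means and points below the dotted line at 0 counts. For the genes from ALB to CDH1 the red points lie above the blue, from MAGEA4 to AXL below, and LIN28B and IGF2BP2 have like levels in both.

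The promoters of ALB and AFP, a fetal liver gene whose levels are given further on, are shown because they are liver promoters of genes that were near 0 in RT4 shNC. Of the 23 hepatocyte members, 15 had an entry in the RefSeq promoter table (GRCh38.p14, 250 bases before to 50 after the start). These 15 held a median of 4 CG, the site of DNA methylation, against 14 in all 27305 promoters of the table and 25 in the 13980 promoters of tested genes. The 20 clotting and 18 complement promoters found held medians of 4.5 and 5. The 14 found for hepatic transcription factors held 24.5, so low CG was not shared by all liver lists. ALB (chr4:73404037-73404336) holds 4 CG and AFP (chr4:73435971-73436270) holds 1. Sequences are 5′ to 3′ on the plus strand, with CG in capitals, which reads the same on both strands. A count of CG describes letters, and methylation was not measured.
ALB: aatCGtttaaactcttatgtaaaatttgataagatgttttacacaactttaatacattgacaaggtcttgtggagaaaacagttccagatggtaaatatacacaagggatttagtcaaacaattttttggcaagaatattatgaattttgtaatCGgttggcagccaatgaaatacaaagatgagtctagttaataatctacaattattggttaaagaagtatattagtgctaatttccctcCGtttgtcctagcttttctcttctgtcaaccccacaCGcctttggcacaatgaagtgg
AFP: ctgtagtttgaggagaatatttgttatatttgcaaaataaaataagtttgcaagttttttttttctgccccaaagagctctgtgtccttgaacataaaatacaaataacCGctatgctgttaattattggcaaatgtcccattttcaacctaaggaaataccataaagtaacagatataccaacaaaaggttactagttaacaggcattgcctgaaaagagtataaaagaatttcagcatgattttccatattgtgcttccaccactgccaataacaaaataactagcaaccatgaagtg

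The transcription factors of the liver programme were higher along with its products. Of 21 tested hepatic factors, 18 were higher and 3 lower in T24 shFTO, with a median log2 change of 8.66. HNF4A (chr20:44355699-44434596), a nuclear receptor at the centre of the hepatocyte network, had 269, 256 and 259.7 CPM in T24 shFTO and 0, 0.0456 and 0 CPM in RT4 shNC, a log2 change of 13.47 (adjusted p = 1.03e-13). FOXA2, a factor that opens liver chromatin, had 52.95, 53.5 and 52.9 CPM in T24 shFTO and 0 counts in RT4 shNC (at least 4313-fold higher). No value of RT4 shNC came near those of T24 shFTO for either factor. GATA4, a factor of early liver and heart, averaged 69.7 ± 1.68 CPM in T24 shFTO and 0 counts in RT4 shNC. CEBPA, PROX1 and ONECUT2, further regulators of liver genes, averaged 387 ± 14.3, 325 ± 10.3 and 159 ± 1.42 CPM in T24 shFTO and 3.64 ± 0.338, 0.461 ± 0.102 and 2.299 ± 0.203 CPM in RT4 shNC. The bile acid receptor NR1H4 averaged 69.7 ± 0.205 CPM in T24 shFTO and 0.124 ± 0.0586 CPM in RT4 shNC. The 3 lower members were CEBPB, PPARA and GATA6. CEBPB, which also serves the response to inflammation, averaged 11.1 ± 1.12 CPM in T24 shFTO and 33.7 ± 11.3 CPM in RT4 shNC (log2 change -1.61), and PPARA, the receptor of fatty acids, 13.6 ± 0.831 CPM in T24 shFTO and 33.9 ± 1.203 CPM in RT4 shNC (log2 change -1.31). GATA6 differed little (log2 change -0.32).

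Most lipoprotein, clotting and complement genes followed the same direction. Of 18 tested genes for apolipoproteins and lipoprotein handling, 14 were higher and 1 lower (median log2 change 7.75, or 7.54 when members with 0 counts take their bound). APOE, a ligand of lipoprotein receptors, averaged 793 ± 45.8 CPM in T24 shFTO and 3.48 ± 0.232 CPM in RT4 shNC (log2 change 7.82). MTTP, which loads lipid onto apolipoprotein B, averaged 54.7 ± 1.41 CPM in T24 shFTO and 0.347 ± 0.0719 CPM in RT4 shNC. The cholesterol exporter ABCA1 was not called (68.7 ± 1.83 CPM in T24 shFTO and 69.8 ± 5.403 CPM in RT4 shNC). Among clotting factors and inhibitors, 17 of 21 were higher and 3 lower. Prothrombin mRNA (F2) had 238, 227 and 235 CPM in T24 shFTO and 0, 0.0456 and 0 CPM in RT4 shNC. The coagulation factors F5, F7 and F10 averaged 149 ± 4.61, 87.9 ± 2.52 and 48.4 ± 3.51 CPM in T24 shFTO and 0.0152 ± 0.0263, 0 and 0.376 ± 0.171 CPM in RT4 shNC. The lower members were the fibrinolytic genes PLAU and PLAT and the protease inhibitor TFPI2. PLAU, the urokinase that turns plasminogen into plasmin, had 0.215, 0.244 and 0.205 CPM in T24 shFTO and 535, 546 and 549 CPM in RT4 shNC, a log2 change of -11.26 (adjusted p = 6.65e-23). PLAT, the tissue-type activator, averaged 0.273 ± 0.0551 CPM in T24 shFTO and 16.7 ± 0.835 CPM in RT4 shNC. Of 21 complement genes 17 were higher. Their list summed to 2870 to 2948 CPM in T24 shFTO and 471 to 480 CPM in RT4 shNC. T24 shNC had 3040 to 3077 CPM and RT4 shFTO 1244 to 1267 CPM, so these levels were not particular to T24 shFTO. C3, the hub of the cascade, had 1534, 1532 and 1609.6 CPM in T24 shFTO and 0.138, 0.119 and 0.01104 CPM in RT4 shNC (log2 change 14.17). C3 also stood at 679 CPM in T24 shNC and 299.6 CPM in RT4 shFTO, so RT4 shNC was the low group for it. The 2 lower members were CD55 and CD59, membrane proteins that restrain complement (10.4 ± 0.767 and 151 ± 4.02 CPM in T24 shFTO and 21.4 ± 0.415 and 274 ± 2.93 CPM in RT4 shNC).

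Enzymes of liver metabolism were higher as lists, but several of the most liver-restricted ones were close to 0 in T24 shFTO as well. By summed level, T24 shNC exceeded T24 shFTO for each of these lists. Of 22 tested genes of the urea cycle and amino acid catabolism, 19 were higher (median log2 change 2.74). Their list summed to 1588 to 1633.5 CPM in T24 shFTO and 4316 to 4408 CPM in T24 shNC, although 12 members reached 10 CPM in T24 shFTO and 7 in T24 shNC. The CPS1 level of T24 shNC given above was larger than the gap between these sums, so their order rests on that gene. The tyrosine pathway enzyme HGD, the histidine ammonia lyase HAL and the urea cycle enzyme ASS1 averaged 116 ± 1.31, 107 ± 3.14 and 89.7 ± 3.35 CPM in T24 shFTO and 0.0366 ± 0.0329, 0.186 ± 0.0401 and 0.3701 ± 0.0179 CPM in RT4 shNC. ARG1, the last enzyme of the urea cycle, averaged 3.41 ± 0.3502 CPM in T24 shFTO and 0.216 ± 0.0531 CPM in RT4 shNC, and OTC, the second enzyme of that cycle, was not tested (0.0635 ± 0.0137 CPM in T24 shFTO and 0.0245 ± 0.0281 CPM in RT4 shNC). Among cytochrome P450 and conjugation enzymes, 17 of 22 were higher and 4 lower. That list summed to 327 to 344 CPM in T24 shFTO, 401 to 431 CPM in T24 shNC and 767 to 799 CPM in RT4 shFTO. The glucuronosyltransferase UGT2B4 averaged 137 ± 2.61 CPM in T24 shFTO and 0 counts in RT4 shNC. CYP2E1, which oxidises ethanol, went the other way, with 0.587, 0.763 and 0.333 CPM in T24 shFTO and 11.4, 12.2 and 11.8 CPM in RT4 shNC (log2 change -4.40, adjusted p = 1.34e-07). GSTP1, a glutathione transferase of most tissues but not of hepatocytes, had 0.0587, 0.122 and 0.102 CPM in T24 shFTO and 85.7, 115 and 106 CPM in RT4 shNC (log2 change -10.12). GSTM3, a related transferase, was higher (27.2 ± 1.32 CPM in T24 shFTO and 0.161 ± 0.0197 CPM in RT4 shNC, log2 change 7.42). In the list for bile acids, organic anions and glucose, 8 of 11 tested members were higher, among them the canalicular pump ABCC2 (158 ± 0.9895 CPM in T24 shFTO and 8.65 ± 0.302 CPM in RT4 shNC) and the glucose transporter SLC2A2 (18.4 ± 0.307 CPM in T24 shFTO and 0 counts in RT4 shNC). CYP7A1, the rate-limiting enzyme of bile acid synthesis, had 0 counts in T24 shFTO and 0.0578 ± 0.0267 CPM in RT4 shNC and was not tested, and G6PC1 had 0 counts in both groups. The list for bile acids, organic anions and glucose summed to 288 to 293 CPM in T24 shFTO and 1034 to 1064 CPM in T24 shNC.

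Fetal liver genes and imprinted growth genes were among the largest differences. Of 12 oncofetal liver genes, 10 were higher and 2 lower (median log2 change 6.14). AFP, the fetal counterpart of albumin, had 746, 739.8 and 733 CPM in T24 shFTO and 0 counts in RT4 shNC (at least 60136-fold higher). GPC3, a heparan sulphate proteoglycan of fetal liver, had 659, 639.9 and 646 CPM in T24 shFTO and 0 counts in RT4 shNC (at least 52796-fold higher). AFP averaged 0.0143 CPM in T24 shNC and 1.34 CPM in RT4 shFTO, and GPC3 0 and 0.0527 CPM in those groups. IGF2 (chr11:2129117-2149566), a fetal growth factor, had 5055, 5150.3 and 5065 CPM in T24 shFTO and 0, 0 and 0.0221 CPM in RT4 shNC. RT4 shNC had 2 IGF2 counts in all, and the ratio was 619518 with a 95% counting interval of 171500 to 5115570. H19, the noncoding RNA beside IGF2 that is expressed from the other parental copy, had 2374, 2299.9 and 2301 CPM in T24 shFTO and 0.0459, 0.0365 and 0.0552 CPM in RT4 shNC (log2 change 15.57). Both transcripts of this locus were thus on in T24 shFTO and off in RT4 shNC. The imprinted genes DLK1, GRB10 and SNRPN averaged 268 ± 3.83, 113 ± 1.66 and 299 ± 8.64 CPM in T24 shFTO and 0, 0 and 0 CPM in RT4 shNC, with 0 counts of all 3 in RT4 shNC. SNRPN shares its transcript with SNURF, so reads of the pair may not be separable, and IGF2 and H19 each have antisense or overlapping annotations. PEG10, a retrotransposon-derived imprinted gene, went the other way (23.4, 21.6 and 22.5 CPM in T24 shFTO, 447, 443 and 441 CPM in RT4 shNC, log2 change -4.30). Over the imprinted list 14 of 25 were higher and 11 lower, which is no common direction. GNAS, another imprinted gene, was lower (759.8 ± 15.4 CPM in T24 shFTO and 1918 ± 116 CPM in RT4 shNC, log2 change -1.34). In the insulin-like growth factor axis 13 of 18 tested genes were higher. The adaptor IRS2 had 59.8, 50.9 and 53.8 CPM in T24 shFTO and 0 counts in RT4 shNC, while IRS1 was nearly level (65.7 ± 0.165 CPM in T24 shFTO and 70.2 ± 1.06 CPM in RT4 shNC, log2 change -0.10), a call that was lost with RLE scaling, with DESeq2 and with the 6 libraries alone. The receptors IGF1R, IGF2R and INSR averaged 72.2 ± 1.29, 618 ± 15.6 and 90.6 ± 1.81 CPM in T24 shFTO and 47.9 ± 2.07, 365 ± 12.2 and 37.8 ± 3.01 CPM in RT4 shNC, higher by 0.60, 0.76 and 1.27 on the log2 scale. IGFBP3, the main binding protein of plasma, averaged 45.4 ± 1.55 CPM in T24 shFTO and 0.0916 ± 0.0398 CPM in RT4 shNC.

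LIN28B was at like levels in both groups, and its circle had no common direction. LIN28B blocks the maturation of let-7 microRNAs, which in turn restrain HMGA2, IGF2BP1 and other fetal genes. LIN28B had 102, 98.5 and 98.4 CPM in T24 shFTO and 112, 110.4 and 114 CPM in RT4 shNC, a small call of -0.17 on the log2 scale (adjusted p = 0.000942), and 0 counts in every library of T24 shNC and RT4 shFTO. The let-7 target HMGA2 had 388, 378 and 394 CPM in T24 shFTO and 1592, 1742 and 1643 CPM in RT4 shNC (log2 change -2.10). HMGA1 averaged 677 ± 11.9 CPM in T24 shFTO and 2723 ± 238 CPM in RT4 shNC (log2 change -2.01). Both chromatin proteins were lower in T24 shFTO, though not low. IGF2BP2 was not called (163, 151 and 149 CPM in T24 shFTO, 148, 153 and 157 CPM in RT4 shNC), IGF2BP1 was higher (456 ± 8.03 CPM in T24 shFTO and 124 ± 2.36 CPM in RT4 shNC, log2 change 1.88), as was IGF2BP3 by a little (log2 change 0.26). TRIM71, another let-7 target, separated the groups, with 171, 151 and 165 CPM in T24 shFTO and 0.0918, 0.1004 and 0.166 CPM in RT4 shNC (log2 change 10.34). Over the 17 tested genes of this axis 8 were higher and 7 lower, with a median log2 change of 0.02.

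The labelled tissue was checked against its markers, and neither group held the surface programme of urothelium. No tested uroplakin averaged above 1.295 CPM (UPK1B) in T24 shFTO or 0.249 CPM (UPK1A) in RT4 shNC, KRT20 had 0 counts in both groups, and KRT5, KRT14 and KRT6A of basal cells had 0 counts in both. TP63, the basal cell regulator, averaged 0.167 ± 0.0579 CPM in T24 shFTO and 0.204 ± 0.109 CPM in RT4 shNC and was not called. Of 15 tested basal and squamous genes 4 were higher and 5 lower. The libraries labelled RT4 shNC also lacked the epithelial core. CDH1 (E-cadherin, chr16:68737292-68835537) had 154, 152 and 158 CPM in T24 shFTO and 0.0918, 0 and 0.0442 CPM in RT4 shNC (log2 change 12.09, adjusted p = 1.48e-08). EPCAM had 399, 371 and 362 CPM in T24 shFTO and 0.115, 0.0456 and 0.0883 CPM in RT4 shNC (log2 change 12.27). The groups did not overlap, and the values of RT4 shNC for both adhesion proteins were near 0, although RT4 is known as an epithelial line. Of 19 tested luminal urothelial genes 14 were higher in T24 shFTO and 3 lower, and the lower ones were KRT7, CLDN4 and UPK2, the last not called without T24 shFTO replicate 2. The higher ones included genes that liver cells also use, such as FOXA1, KRT8 and KRT18 (141 ± 4.27, 1739.6 ± 91.9 and 1021 ± 28.2 CPM in T24 shFTO and 1.61 ± 0.366, 168 ± 5.98 and 548 ± 33.9 CPM in RT4 shNC). FGFR3, a receptor often altered in papillary bladder tumours, had 524, 511 and 518 CPM in T24 shFTO and 1.33, 1.31 and 1.27 CPM in RT4 shNC (log2 change 8.63), and KRT19 averaged 155 ± 8.37 CPM in T24 shFTO and 0.0999 ± 0.0292 CPM in RT4 shNC. Of 29 epithelial junction genes 22 were higher and 6 lower, with a median log2 change of 3.15. The epithelial splicing regulator ESRP1, the desmosomal protein DSP and the tight junction protein CLDN1 averaged 145 ± 6.46, 684 ± 22.9 and 666 ± 14.6 CPM in T24 shFTO and 0.128 ± 0.0594, 3.33 ± 0.342 and 39.4 ± 2.29 CPM in RT4 shNC. The plakophilin PKP3 (2.57 ± 0.307 CPM in T24 shFTO and 37.7 ± 1.41 CPM in RT4 shNC) and the protease inhibitor SPINT2 (0.2005 ± 0.198 CPM in T24 shFTO and 2.43 ± 0.321 CPM in RT4 shNC) were lower.

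Mesenchymal genes were split rather than uniformly low in T24 shFTO. Of 30 tested members 12 were higher and 16 lower (median log2 change -0.43), close to the shares over all genes. The intermediate filament VIM had 515, 484 and 491 CPM in T24 shFTO and 3163, 3326 and 3449.9 CPM in RT4 shNC (log2 change -2.74). The receptor kinase AXL had 1.39, 1.89 and 1.61 CPM in T24 shFTO and 447, 452 and 451 CPM in RT4 shNC (log2 change -8.13, adjusted p = 4.87e-22). The repressor ZEB1, which shuts off CDH1, averaged 5.84 ± 0.412 CPM in T24 shFTO and 51.5 ± 1.32 CPM in RT4 shNC (log2 change -3.13). Its relative ZEB2 averaged 0.102 ± 0.0884 CPM in T24 shFTO and 34.7 ± 0.628 CPM in RT4 shNC (log2 change -8.56). TWIST1 had 0 counts in T24 shFTO and 8.45, 9.498 and 8.94 CPM in RT4 shNC (at least 373-fold lower). These 3 regulators were thus lower in T24 shFTO, while some secreted matrix genes of the same list were higher. Fibronectin (FN1), TGFBI and the collagen crosslinker LOX averaged 2119 ± 56.7, 488 ± 9.58 and 68.1 ± 2.87 CPM in T24 shFTO and 176 ± 1.96, 32.4 ± 1.199 and 1.53 ± 0.0162 CPM in RT4 shNC. Among collagens and matrix proteins 14 of 33 were higher and 13 lower. The basement membrane protein NID1 averaged 327 ± 7.902 CPM in T24 shFTO and 1.78 ± 0.0869 CPM in RT4 shNC. The platelet matrix protein THBS1 was higher (1222 ± 10.1 CPM in T24 shFTO and 335 ± 20.2 CPM in RT4 shNC). Of 17 integrin subunits 7 were higher and 9 lower. ITGA3, a laminin receptor subunit, had 2.43, 2.71 and 2.28 CPM in T24 shFTO and 1022, 1004 and 1034 CPM in RT4 shNC (log2 change -8.69). ITGA4 averaged 0.118 ± 0.141 CPM in T24 shFTO and 46.2 ± 0.714 CPM in RT4 shNC. The collagen receptor subunit ITGA1 (147 ± 4.93 CPM in T24 shFTO and 11.1 ± 0.579 CPM in RT4 shNC) and ITGAV (300.2 ± 3.43 CPM in T24 shFTO and 98.4 ± 3.84 CPM in RT4 shNC) were higher. CD44, the hyaluronan receptor used as a stem cell and basal marker, had 0.0782, 0 and 0 CPM in T24 shFTO and 329.98, 346 and 339 CPM in RT4 shNC (log2 change -13.24). Since CD44 averaged 351 CPM in T24 shNC and 797 CPM in RT4 shFTO, T24 shFTO was the only group of the 4 near 0 for it. CDCP1, CD9, SLC25A24 and the mucin MUC15 had 0 counts in T24 shFTO and averaged 259 ± 6.41 CPM, 117 ± 4.67 CPM, 104 ± 0.396 CPM and 84.02 ± 4.56 CPM in RT4 shNC, and MUC15 had 0 counts in RT4 shFTO too. AHNAK2, a large scaffold protein, averaged 0.313 ± 0.0831 CPM in T24 shFTO and 1784 ± 83.7 CPM in RT4 shNC (log2 change -12.48).

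RT4 shNC carried germline genes that T24 shFTO lacked. Cancer-testis antigens are genes, many on the X chromosome, that are normally confined to germ cells and placenta and reappear in tumours. None of the 23 tested members was higher in T24 shFTO and 17 were lower, against 42.8% lower over all genes, with a median log2 change of -6.53 (-6.20 when members with 0 counts take their bound). The other members of the 35 listed were too low to be tested. Leaving out T24 shFTO replicate 1 gave 2 members called higher, and leaving out replicate 3 gave 1. MAGEA4 (chrX:151912474-151925170) had 0 counts in T24 shFTO and 569, 581 and 589 CPM in RT4 shNC (at least 23844-fold lower). MAGEA10 had 0 counts in T24 shFTO and 47.5, 45.6 and 47.5 CPM in RT4 shNC (at least 1912-fold lower). CTAG1B (NY-ESO-1) had 0, 0 and 0.0256 CPM in T24 shFTO and 113, 120.3 and 121 CPM in RT4 shNC. The highest mean of these 3 genes in T24 shNC or RT4 shFTO was 0.0759 CPM. PRAME differed less, with 4.21, 4.42 and 4.99 CPM in T24 shFTO and 129, 129 and 138 CPM in RT4 shNC (log2 change -4.87). Genes of this family have near-identical copies (MAGEA3 and MAGEA6, the GAGE and XAGE genes, CTAG1B with its copy), and how reads with several positions were counted is not given in the sources used here, so the level of any 1 copy is uncertain. FAM9C, another X-linked gene of testis, and the cyclin-like gene CCNYL2 were also at 0 counts in T24 shFTO and averaged 76.5 ± 1.86 CPM and 86.4 ± 1.65 CPM in RT4 shNC.

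Genes of the piRNA pathway and of meiosis were mixed. Of 21 tested members 5 were higher and 12 lower. TDRD9, a helicase that protects the germline from transposons, had 0 counts in T24 shFTO and 142, 145 and 149.5 CPM in RT4 shNC (at least 5987-fold lower). TDRD12 had 0.0782, 0.153 and 0 CPM in T24 shFTO and 241, 239 and 243 CPM in RT4 shNC (log2 change -11.63). HORMAD1, a protein of meiotic chromosome axes, had 0 counts in T24 shFTO and 43.01, 47.3 and 48.1 CPM in RT4 shNC (at least 1919-fold lower). The synaptonemal protein SYCP2 averaged 10.4 ± 0.206 CPM in T24 shFTO and 146 ± 3.12 CPM in RT4 shNC (log2 change -3.81). TEX15 went the other way (72.8 ± 1.59 CPM in T24 shFTO and 9.23 ± 0.199 CPM in RT4 shNC, log2 change 2.98), as did MEIOB (62.7 ± 0.935 CPM in T24 shFTO and 13.99 ± 0.831 CPM in RT4 shNC, log2 change 2.16). Of 15 tested genes for DNA methylation and its readers 11 were higher and 3 lower, among the higher the maintenance methyltransferase DNMT1 (388 ± 9.81 CPM in T24 shFTO and 118 ± 4.84 CPM in RT4 shNC) and the de novo enzyme DNMT3B (45.1 ± 1.72 CPM in T24 shFTO and 8.09 ± 0.558 CPM in RT4 shNC). Cancer-testis promoters are known to be held off by cytosine methylation at CG, which was not measured in these libraries. The MAGEA4 promoter entry (chrX:151912224-151912523, RefSeq GRCh38.p14, plus strand) is shown with CG in capitals. It holds 10 CG, against a median of 14 in all promoters of the table and 13 in the 31 cancer-testis promoters found.
MAGEA4: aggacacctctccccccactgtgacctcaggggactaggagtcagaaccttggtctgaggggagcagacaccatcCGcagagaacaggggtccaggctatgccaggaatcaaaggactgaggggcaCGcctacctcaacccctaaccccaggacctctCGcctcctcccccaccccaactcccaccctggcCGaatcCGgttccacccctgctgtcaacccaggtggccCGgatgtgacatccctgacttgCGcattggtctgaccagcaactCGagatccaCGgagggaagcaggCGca

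Neuronal and neuroendocrine genes were mostly lower in T24 shFTO, which was the low group of the series for them. Their list summed to 185 to 192 CPM in T24 shFTO and 1102 to 1165 CPM in RT4 shNC. T24 shNC had 1651 to 1680 CPM and RT4 shFTO 1318 to 1329 CPM, so these levels were not particular to RT4 shNC. Of 22 tested members 4 were higher and 17 lower in T24 shFTO (median log2 change -3.02). UCHL1, a ubiquitin hydrolase abundant in neurons, had 41.4, 41.7 and 43.9 CPM in T24 shFTO and 477, 504 and 489 CPM in RT4 shNC (log2 change -3.53). STMN3, a regulator of microtubules, had 0.528, 0.458 and 0.717 CPM in T24 shFTO and 154, 159 and 163 CPM in RT4 shNC (log2 change -8.12). INA, a neuronal intermediate filament, had 0 counts in T24 shFTO and 21.5, 25.6 and 23.4 CPM in RT4 shNC (at least 986-fold lower). CHGB, a protein of secretory granules, had 0.0391, 0 and 0 CPM in T24 shFTO and 38.4, 35.6 and 37.8 CPM in RT4 shNC. The groups did not overlap for these 4 genes, yet the defining regulators NEUROD1 and INSM1 averaged 0.0134 and 0.00608 CPM in RT4 shNC, both near 0. L1CAM, an adhesion protein, was higher in T24 shFTO (24.6 ± 2.203 CPM in T24 shFTO and 0.139 ± 0.0416 CPM in RT4 shNC, log2 change 7.52).

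The HOX clusters, which encode position along the body axis, separated the groups cluster by cluster. Of 38 tested HOX genes and cluster noncoding RNAs, 5 were higher and 28 lower (median log2 change -6.20, -4.23 when members with 0 counts take their bound), and 21 of the 42 listed had 0 counts in T24 shFTO. All 9 tested HOXB genes were lower, as were 7 of 8 HOXC and 5 of 7 HOXD genes, and the other 3 were not called. HOXB3 had 0 counts in T24 shFTO and 97.4, 100.4 and 102 CPM in RT4 shNC (at least 4114-fold lower). It averaged 15.5 CPM in T24 shNC and 54.9 CPM in RT4 shFTO, so T24 shFTO was the low group for it. HOXB2 had 0 counts in T24 shFTO and 56.4, 64.9 and 62.9 CPM in RT4 shNC (at least 2566-fold lower). The HOXA cluster was the exception: 5 of its 11 tested genes were higher and 6 lower. HOXA10 had 15.3, 16.8 and 14.2 CPM in T24 shFTO and 0.138, 0.173 and 0.199 CPM in RT4 shNC (log2 change 6.43). HOXA3, toward the 3′ end of the cluster, was higher (21.3 ± 0.0969 CPM in T24 shFTO and 4.98 ± 0.364 CPM in RT4 shNC), and HOXA7 and HOXA9 lower (13.3 ± 1.11 and 1.15 ± 0.113 CPM in T24 shFTO and 26.8 ± 1.19 and 13.2 ± 1.14 CPM in RT4 shNC). RT4 shFTO, which bears the same line's name as RT4 shNC, averaged at most 0.243 CPM of any of the 11 (HOXA11). Of the 42 listed, 13 reached 10 CPM in RT4 shNC, 11 in T24 shNC, 4 in T24 shFTO and 1 in RT4 shFTO. TBX18, a T-box factor of mesenchyme, had 0 counts in T24 shFTO and 111, 119 and 119 CPM in RT4 shNC. It averaged 0.0962 CPM in T24 shNC and 26.7 CPM in RT4 shFTO.

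Replication and mitosis genes were higher in T24 shFTO than in RT4 shNC, which was the low group of the series for both lists. All 41 of 41 DNA replication and S phase genes were higher (median log2 change 1.75), as were 34 of 40 mitosis genes, with 3 lower (median 0.97). Replication genes summed to 4553 to 4706 CPM in T24 shFTO and 1308 to 1369 CPM in RT4 shNC. T24 shNC had 4197 to 4316 CPM of them and RT4 shFTO 2899 to 2946 CPM. Mitosis genes summed to 5239 to 5399 CPM in T24 shFTO and 2318 to 2444 CPM in RT4 shNC. T24 shNC had 3938 to 4028 CPM of these and RT4 shFTO 7046 to 7102 CPM. CDC6, which loads the replicative helicase, had 122, 111 and 119 CPM in T24 shFTO and 7.73, 7.82 and 8.03 CPM in RT4 shNC (log2 change 3.90, SE 0.04). The helicase subunit MCM2 had 303, 287 and 278 CPM in T24 shFTO and 47.05, 46.5 and 47.6 CPM in RT4 shNC (log2 change 2.62, SE 0.04). TK1, which salvages thymidine in S phase, averaged 127 ± 6.02 CPM in T24 shFTO and 15.3 ± 1.39 CPM in RT4 shNC (log2 change 3.04). The lowest change in the list was that of RFC1 at 0.45. The proliferation marker MKI67 had 320.04, 299.6 and 323 CPM in T24 shFTO and 71.97, 72.9 and 74.2 CPM in RT4 shNC (log2 change 2.11). The spindle checkpoint kinase BUB1B and topoisomerase TOP2A averaged 211 ± 5.88 and 568 ± 4.04 CPM in T24 shFTO and 35.95 ± 1.26 and 113 ± 2.54 CPM in RT4 shNC. The mitotic kinase AURKA was not called (86.1 ± 5.38 CPM in T24 shFTO and 86.4 ± 3.22 CPM in RT4 shNC). HMMR, CDC25B and NDC80 were lower (27.02 ± 1.38, 88.8 ± 4.63 and 29.9 ± 1.15 CPM in T24 shFTO and 56.3 ± 2.21, 180.4 ± 7.49 and 51.2 ± 2.23 CPM in RT4 shNC). With library totals as the only scaling, 6 mitosis genes were lower in place of 3.

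**Figure D3:**
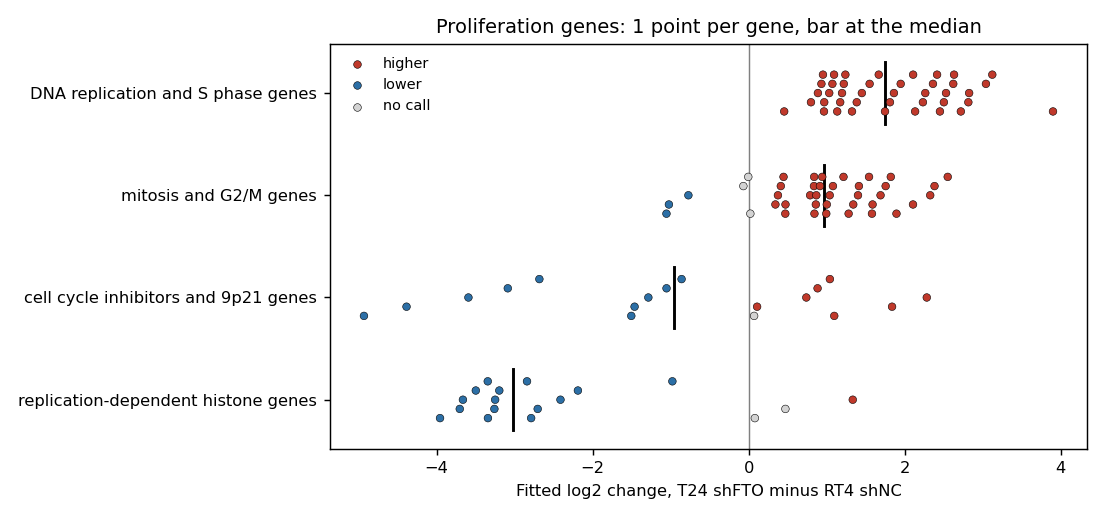
Fitted log2 change, T24 shFTO minus RT4 shNC, of each tested gene (points, spread vertically for legibility) in 4 lists, with red for called higher, blue for called lower, grey for not called, and black bars at the list medians. Every replication gene lies right of 0, and 15 of 18 histone genes are called on the left.

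The cell cycle inhibitors and their partners gave 7 higher and 10 lower of 18 tested. RB1, the retinoblastoma protein that holds back entry into S phase, had 3.21, 3.39 and 2.64 CPM in T24 shFTO and 92.03, 93.5 and 95.96 CPM in RT4 shNC (log2 change -4.93, SE 0.07, adjusted p = 1.24e-18). CDKN1A, which inhibits cyclin kinases, had 2.21, 1.59 and 1.69 CPM in T24 shFTO and 34.6, 40.5 and 41.9 CPM in RT4 shNC (log2 change -4.39). Both were lower in T24 shFTO, with no overlap between groups. CDKN2A, which encodes p16 and ARF, was higher (145 ± 1.67 CPM in T24 shFTO and 70.4 ± 4.75 CPM in RT4 shNC, log2 change 1.04). Its kinase target CDK4 and the ubiquitin ligase MDM2 were higher too (285 ± 8.26 and 119 ± 1.17 CPM in T24 shFTO and 133 ± 10.7 and 64.6 ± 1.47 CPM in RT4 shNC). CDKN2B, next to it on chromosome 9, was lower (38.01 ± 1.03 CPM in T24 shFTO and 108 ± 3.58 CPM in RT4 shNC, log2 change -1.51). CCND1 was lower (110.3 ± 2.26 CPM in T24 shFTO and 304 ± 7.98 CPM in RT4 shNC). Replication-dependent histone genes, whose mRNAs mostly lack poly(A) tails, went against the replication genes: 1 of 18 tested was higher and 15 were lower (median log2 change -3.02), with 3 higher without a low-count filter and none with a filter of 1 CPM in 3 libraries. H2BC12 averaged 5.43 ± 0.801 CPM in T24 shFTO and 61.4 ± 4.65 CPM in RT4 shNC (log2 change -3.50) and the linker histone H1-2 2.08 ± 0.208 CPM in T24 shFTO and 21.2 ± 1.05 CPM in RT4 shNC (log2 change -3.35). The libraries were made from poly(A)-selected RNA, so these values cover only the polyadenylated part, and histone genes are near-identical copies.

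Most interferon-stimulated and MHC class I presentation genes were lower in T24 shFTO. Of 40 tested interferon-stimulated genes 5 were higher and 31 lower (median log2 change -2.06), with 3 higher without RT4 shNC replicate 2, with the 6 libraries alone and with thinning to the smallest library. IFIT5, the ligase HERC5 and OAS3, which senses double-stranded RNA, averaged 0.2303 ± 0.1999, 0.187 ± 0.0584 and 0.322 ± 0.225 CPM in T24 shFTO and 23.6 ± 0.693, 23.7 ± 0.297 and 16.3 ± 0.296 CPM in RT4 shNC. SAMD9L had 0 counts in T24 shFTO and 4.68, 4.86 and 4.79 CPM in RT4 shNC (at least 197-fold lower). RT4 shNC was itself low for some: IFI16, a DNA sensor, had 2 counts in all in T24 shFTO and 0.414 ± 0.179 CPM in RT4 shNC. The other groups had 127 CPM in T24 shNC and 187 CPM in RT4 shFTO. STAT2, a factor that drives this response, was lower too (44.001 ± 1.58 CPM in T24 shFTO and 129 ± 1.11 CPM in RT4 shNC, log2 change -1.55). Of 22 genes of MHC class I presentation 6 were higher and 14 lower, against 42.8% lower over all genes. Their summed level went the other way, at 3283 to 3360 CPM in T24 shFTO and 2585 to 2616 CPM in RT4 shNC. T24 shNC had 6693 to 6956 CPM and RT4 shFTO 10213 to 10565 CPM. The peptide transporter TAP1 had 1.35, 0.915 and 1.23 CPM in T24 shFTO and 46.5, 44.4 and 45.5 CPM in RT4 shNC (log2 change -5.25). PSMB9, a subunit of the immunoproteasome, averaged 0.0386 ± 0.0384 CPM in T24 shFTO and 6.94 ± 0.418 CPM in RT4 shNC. HLA-B was lower (12.6 ± 0.947 CPM in T24 shFTO and 95.6 ± 4.84 CPM in RT4 shNC, log2 change -2.92) and B2M, the light chain shared by class I molecules, higher (275 ± 7.201 CPM in T24 shFTO and 169 ± 3.899 CPM in RT4 shNC). HLA genes vary between people and resemble each other, so how well reads were assigned to each is uncertain. Of 11 tested class II genes 6 were higher and none lower, among them the chaperone CD74 (39.6 ± 1.51 CPM in T24 shFTO and 0.184 ± 0.103 CPM in RT4 shNC).

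Cytokine genes gave 13 higher and 5 lower of 29 tested. CCL20 had 88.9, 89.5 and 88.97 CPM in T24 shFTO and 0.138, 0.146 and 0.0442 CPM in RT4 shNC (log2 change 9.67). CXCL8, which draws neutrophils, had 30.9, 36.2 and 36.1 CPM in T24 shFTO and 0.138, 0.0547 and 0.166 CPM in RT4 shNC (log2 change 8.23). CXCL12 and CXCL5 averaged 30.5 ± 1.67 CPM and 37.2 ± 2.004 CPM in T24 shFTO and had 0 counts in RT4 shNC. CXCL2 went the other way (2.15, 2.14 and 2.202 CPM in T24 shFTO, 67.8, 77.4 and 63.9 CPM in RT4 shNC, log2 change -5.01), as did LIF (18.4 ± 0.538 CPM in T24 shFTO and 98.8 ± 1.52 CPM in RT4 shNC), a cytokine of the IL6 family. The peptide hormone precursor NTS (neurotensin) had 1669.5, 1578 and 1603 CPM in T24 shFTO and 0 counts in RT4 shNC (at least 131933-fold higher).

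Isoenzymes of glycolysis differed between the groups, while LDHA, PKM and TPI1 had like levels. Over 37 genes of glycolysis and hypoxia 14 were higher and 18 lower (median log2 change -0.03). HK1, the hexokinase of most tissues, had 0 counts in T24 shFTO and 65.2, 64.8 and 67.6 CPM in RT4 shNC (at least 2701-fold lower). HK2 was higher, with 372, 358 and 356 CPM in T24 shFTO and 32.8, 31.3 and 32.3 CPM in RT4 shNC (log2 change 3.50). T24 shNC and RT4 shFTO had 349 and 185 CPM of HK1, so its absence set T24 shFTO apart from all 3 other groups. LDHB, the lactate dehydrogenase subunit of oxidative tissues, had 0.548, 0.153 and 0.307 CPM in T24 shFTO and 1025, 1059 and 1079 CPM in RT4 shNC (log2 change -11.49). LDHA was not called (556, 539.7 and 565 CPM in T24 shFTO, 539.9, 568 and 584 CPM in RT4 shNC). Among phosphofructokinases the platelet form PFKP, the muscle form PFKM and the liver form PFKL averaged 0.586 ± 0.154, 18.7 ± 0.716 and 85.2 ± 2.82 CPM in T24 shFTO and 144 ± 1.06, 214 ± 4.65 and 137 ± 3.22 CPM in RT4 shNC. All 3 were lower, with log2 changes of -7.90, -3.52 and -0.68. The liver and red cell pyruvate kinase PKLR averaged 12.9 ± 0.191 CPM in T24 shFTO and 0.0663 ± 0.0522 CPM in RT4 shNC. PKM differed little (701 ± 29.6 CPM in T24 shFTO and 762 ± 17.3 CPM in RT4 shNC, log2 change -0.12). The brain forms of aldolase and enolase went opposite ways, ALDOC higher (20.7 ± 1.16 CPM in T24 shFTO and 0.348 ± 0.0584 CPM in RT4 shNC) and ENO2 lower (11.8 ± 1.23 CPM in T24 shFTO and 66.8 ± 2.47 CPM in RT4 shNC). TPI1 was not called (559.9 ± 36.6 CPM in T24 shFTO and 561 ± 41.6 CPM in RT4 shNC). The glucose transporter SLC2A1 was lower (30.8 ± 1.15 CPM in T24 shFTO and 106 ± 1.804 CPM in RT4 shNC, log2 change -1.79). Of 31 isoenzymes of liver and other tissues 17 were higher and 12 lower. The liver forms MAT1A (11.4 ± 0.539 CPM in T24 shFTO and 0.189 ± 0.08805 CPM in RT4 shNC) and FABP1 (5.62 ± 0.322 CPM in T24 shFTO and 0 counts in RT4 shNC) were higher. Hypoxia targets were split as well, with VEGFA higher (160.2 ± 1.37 CPM in T24 shFTO and 75.7 ± 3.23 CPM in RT4 shNC) and BNIP3L lower (13.3 ± 0.679 CPM in T24 shFTO and 142 ± 4.33 CPM in RT4 shNC).

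**Figure D4:**
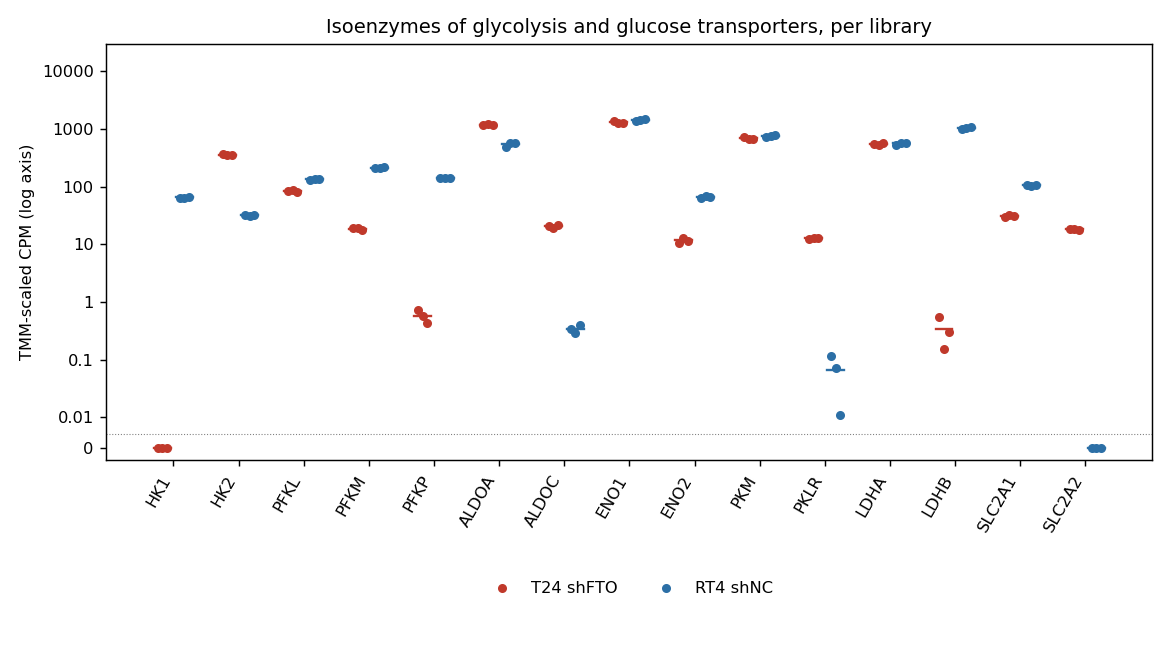
TMM-scaled CPM (log axis) of 15 genes of glucose uptake and glycolysis in each T24 shFTO library (red, left in each column) and each RT4 shNC library (blue, right), with short lines at the means and points below the dotted line at 0 counts. HK1, PFKP and LDHB are near or at 0 in T24 shFTO and SLC2A2 in RT4 shNC, while ENO1, PKM and LDHA have like levels.

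Lipid synthesis and redox genes were higher in part. Of 24 sterol and fatty acid synthesis genes 13 were higher and 9 lower. Fatty acid synthase (FASN) had 1306, 1259 and 1251 CPM in T24 shFTO and 289.9, 283 and 291 CPM in RT4 shNC (log2 change 2.14). The desaturase SCD went the other way (549, 550.3 and 537 CPM in T24 shFTO, 2257, 2214 and 2158 CPM in RT4 shNC, log2 change -2.02). INSIG1, which restrains the pathway, and its driver SREBF1 were lower (10.4 ± 0.683 and 133 ± 2.32 CPM in T24 shFTO and 64.4 ± 0.312 and 439 ± 17.5 CPM in RT4 shNC), and SREBF2 was higher (228 ± 2.898 CPM in T24 shFTO and 165 ± 4.85 CPM in RT4 shNC). Of 31 NRF2 targets and glutathione genes 24 were higher and 5 lower (median log2 change 0.95). By summed level RT4 shNC was the low group of the series for this list, at 4033 to 4589 CPM. T24 shFTO had 10900 to 11806 CPM, T24 shNC 22862 to 23487 CPM and RT4 shFTO 16111 to 16322 CPM. The iron store subunits FTL and FTH1 and the transporter ABCC3 were higher (6175 ± 412, 2028 ± 69.1 and 155 ± 1.06 CPM in T24 shFTO and 1504 ± 149.5, 527 ± 49.7 and 1.45 ± 0.2199 CPM in RT4 shNC). The best known NRF2 target, NQO1, was lower (48.5 ± 1.61 CPM in T24 shFTO and 215 ± 12.005 CPM in RT4 shNC, log2 change -2.15), and the aldose reductase AKR1B1 had 0.0782, 0 and 0 CPM in T24 shFTO and 87.1, 101 and 104 CPM in RT4 shNC (log2 change -11.44).

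The m6A machinery, in which FTO acts, differed in both directions. Of 24 writers, erasers and readers 16 were higher and 6 lower, and the median log2 change was 0.29. The writer METTL3 had 62.4, 67.3 and 62.98 CPM in T24 shFTO and 30.3, 30.9 and 33.3 CPM in RT4 shNC (log2 change 1.02, SE 0.04). Its partner METTL14 had 37.8, 36.7 and 37.99 CPM in T24 shFTO and 16.3, 15.4 and 17.5 CPM in RT4 shNC (log2 change 1.20, SE 0.06). The scaffold subunits VIRMA and ZC3H13 were lower (102.9 ± 3.52 and 40.7 ± 1.901 CPM in T24 shFTO and 142 ± 3.44 and 91.8 ± 3.77 CPM in RT4 shNC), and WTAP was not called (78.9 ± 3.66 CPM in T24 shFTO and 75.997 ± 5.36 CPM in RT4 shNC). ALKBH5, the other m6A demethylase, was higher (104, 99.7 and 100.4 CPM in T24 shFTO, 70.3, 75.8 and 76.1 CPM in RT4 shNC, log2 change 0.45). The largest change among these genes was that of IGF2BP1 given above, followed by that of the reader HNRNPA2B1 (1465 ± 104 CPM in T24 shFTO and 632 ± 15.96 CPM in RT4 shNC, log2 change 1.21). The m6A mark itself was not measured.

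Growth factor receptors and ligands differed member by member. Of 25 genes of FGF, ERBB and MET signalling 15 were higher and 7 lower (median log2 change 1.95). FGFR4, the FGF receptor of hepatocytes, had 416, 410.2 and 417 CPM in T24 shFTO and 3.53, 3.27 and 3.36 CPM in RT4 shNC (log2 change 6.94), and its co-receptor KLB averaged 86.4 ± 0.755 CPM in T24 shFTO and 0.365 ± 0.133 CPM in RT4 shNC. Their ligand FGF19 had 11.8, 10.4 and 12.5 CPM in T24 shFTO and 0, 0.0274 and 0 CPM in RT4 shNC, where 3 counts were seen in all (ratio 947, 95% counting interval 323 to 4597). FGFR2 was higher (36.97 ± 1.39 CPM in T24 shFTO and 0.0504 ± 0.0586 CPM in RT4 shNC), and FGFR1 lower (18.3 ± 0.719 CPM in T24 shFTO and 113 ± 1.57 CPM in RT4 shNC, log2 change -2.63). FGF5 had 0 counts in T24 shFTO and 28.9, 29.2 and 28.9 CPM in RT4 shNC (at least 1189-fold lower). The receptors EGFR (185 ± 3.03 CPM in T24 shFTO and 44.9 ± 1.04 CPM in RT4 shNC, log2 change 2.05) and ERBB3 (269 ± 1.07 CPM in T24 shFTO and 23.98 ± 1.65 CPM in RT4 shNC, log2 change 3.48) were higher. Among EGFR ligands EREG and AREG were higher (159 ± 2.94 and 56.9 ± 1.33 CPM in T24 shFTO and 0.0184 ± 0.0319 and 0.129 ± 0.0879 CPM in RT4 shNC), while TGFA and HBEGF were lower (0.0537 ± 0.0514 and 2.77 ± 0.0564 CPM in T24 shFTO and 44.3 ± 0.254 and 14.8 ± 0.519 CPM in RT4 shNC).

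Wnt genes had no common direction, with 17 of 37 tested higher and 14 lower. The secreted inhibitor DKK1 had 1253, 1277 and 1303 CPM in T24 shFTO and 2.87, 3.28 and 3.29 CPM in RT4 shNC (log2 change 8.64). Several targets and feedback genes of the pathway were higher, among them LGR5, RNF43, NOTUM and GLUL (82.4 ± 3.34, 57.1 ± 2.03, 12.4 ± 0.713 and 446 ± 4.24 CPM in T24 shFTO and 0.111 ± 0.0576, 0.0703 ± 0.0611, 0.366 ± 0.136 and 23.6 ± 0.972 CPM in RT4 shNC). AXIN2, a target in most tissues, changed less (3.68 ± 0.555 CPM in T24 shFTO and 1.95 ± 0.1797 CPM in RT4 shNC, log2 change 0.91). Beta-catenin (CTNNB1) was not called (314 ± 0.675 CPM in T24 shFTO and 317 ± 9.76 CPM in RT4 shNC). Receptors differed by member, with FZD5 higher (196 ± 4.59 CPM in T24 shFTO and 7.86 ± 0.444 CPM in RT4 shNC) and FZD1 and FZD3 lower (4.05 ± 0.376 and 0.619 ± 0.214 CPM in T24 shFTO and 54.002 ± 0.9702 and 25.4 ± 1.13 CPM in RT4 shNC). The antagonist SFRP1 had 0 counts in T24 shFTO and averaged 7.12 ± 0.446 CPM in RT4 shNC.

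Stemness genes, which the study's title names, were split by gene. Of 27 tested 16 were higher and 7 lower (median log2 change 2.01). ALDH1A1, the retinaldehyde dehydrogenase behind the ALDH activity assay, had 977, 879.5 and 901 CPM in T24 shFTO and 0 counts in RT4 shNC (at least 75312-fold higher). PROM1 (CD133) had 388, 375 and 379.97 CPM in T24 shFTO and 0, 0 and 0.0442 CPM in RT4 shNC (log2 change 14.30). SOX4 had 347, 337 and 338 CPM in T24 shFTO and 1.12, 1.49 and 1.63 CPM in RT4 shNC (log2 change 7.86), and CD24 averaged 697 ± 19.9 CPM in T24 shFTO and 0.538 ± 0.152 CPM in RT4 shNC. Several of the higher genes also belong to liver or epithelium, among them EPCAM, ALDH1A1 and ALDH2 (158 ± 6.26 CPM in T24 shFTO and 0.482 ± 0.185 CPM in RT4 shNC). On the other side stood CD44, given above, KLF4 and BMI1 (1.22 ± 0.398 and 66.5 ± 0.466 CPM in T24 shFTO and 18.04 ± 0.849 and 125 ± 1.03 CPM in RT4 shNC), and SOX9. SOX9 had 89.9, 88.9 and 92.8 CPM in T24 shFTO and 157, 162 and 157 CPM in RT4 shNC (log2 change -0.81). The core pluripotency genes were low in both groups, SOX2 less so in T24 shFTO. POU5F1, SOX2 and NANOG averaged 0.5399 ± 0.0353, 2.13 ± 0.179 and 0.0196 ± 0.0339 CPM in T24 shFTO and 0.121 ± 0.0575, 0.449 ± 0.0814 and 0.00736 ± 0.0127 CPM in RT4 shNC.

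Transcripts abundant in both groups also differed, many of them by little. Of 13 mitochondrially encoded mRNAs 10 were higher and none lower (median log2 change 1.16), against 1 lower with library totals as the only scaling and 1 without RT4 shNC replicate 3. MT-CO2 had 12246, 9543 and 11801 CPM in T24 shFTO and 2791, 3298 and 2841 CPM in RT4 shNC (log2 change 1.91). MT-CO1 was not called (16299, 18073 and 18086 CPM in T24 shFTO, 16339, 17837 and 16349 CPM in RT4 shNC). The higher mean of MT-ATP6, MT-ND4 and MT-CO3 was in T24 shFTO as well (8184 ± 336, 9961 ± 460.2 and 9523 ± 193 CPM in T24 shFTO and 2336 ± 525, 4811 ± 752 and 4503 ± 555 CPM in RT4 shNC). MT-ATP8 rested on uneven RT4 shNC libraries (1459, 1743 and 1704 CPM in T24 shFTO, 309, 265 and 56.7 CPM in RT4 shNC). Of 25 housekeeping genes 13 were higher and 11 lower. ACTB had 6525, 6592 and 6725 CPM in T24 shFTO and 1784, 1974 and 1999 CPM in RT4 shNC (log2 change 1.78). The elongation factor EEF1A1 had 9941, 9196 and 9308 CPM in T24 shFTO and 18822, 19941 and 20747 CPM in RT4 shNC (log2 change -1.06), and GAPDH had 3726, 3827 and 3931 CPM in T24 shFTO and 6083, 7028 and 7080.2 CPM in RT4 shNC (log2 change -0.81). The transferrin receptor TFRC was higher (575 ± 10.97 CPM in T24 shFTO and 72.6 ± 2.18 CPM in RT4 shNC), and TPT1 and the ribosomal RPL13A were lower (509.6 ± 13.6 and 1087 ± 22.1 CPM in T24 shFTO and 2002 ± 114 and 2313 ± 219 CPM in RT4 shNC). Of 8629 genes at 10 CPM or more in both groups, 4050 lay within 1.5-fold, 936 were not called and 488 differed more than 4-fold. In either group, 11517 genes reached 10 CPM. Those that reached it in a single group, such as ALB, CD44 and LDHB, are outside these counts. The counts therefore leave out many of the largest differences.

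Presence and absence were counted without a test. With on meaning at least 10 CPM in all 3 libraries and off meaning under 0.1 CPM in all 3, 268 genes were on in T24 shFTO and off in RT4 shNC, and 164 were off in T24 shFTO and on in RT4 shNC. Of the 268, 188 were on in neither T24 shNC nor RT4 shFTO, among them 51 that were off in both, and 34 were on in both. Of the 164, 95 were on in neither T24 shNC nor RT4 shFTO, among them 31 that were off in both, and 35 were on in both. Absence from RT4 shNC alone (GRB10, IRS2) and absence from T24 shFTO alone (CD44, HK1) are thus both among the differences, beside the programmes present in a single group.

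**Figure D5:**
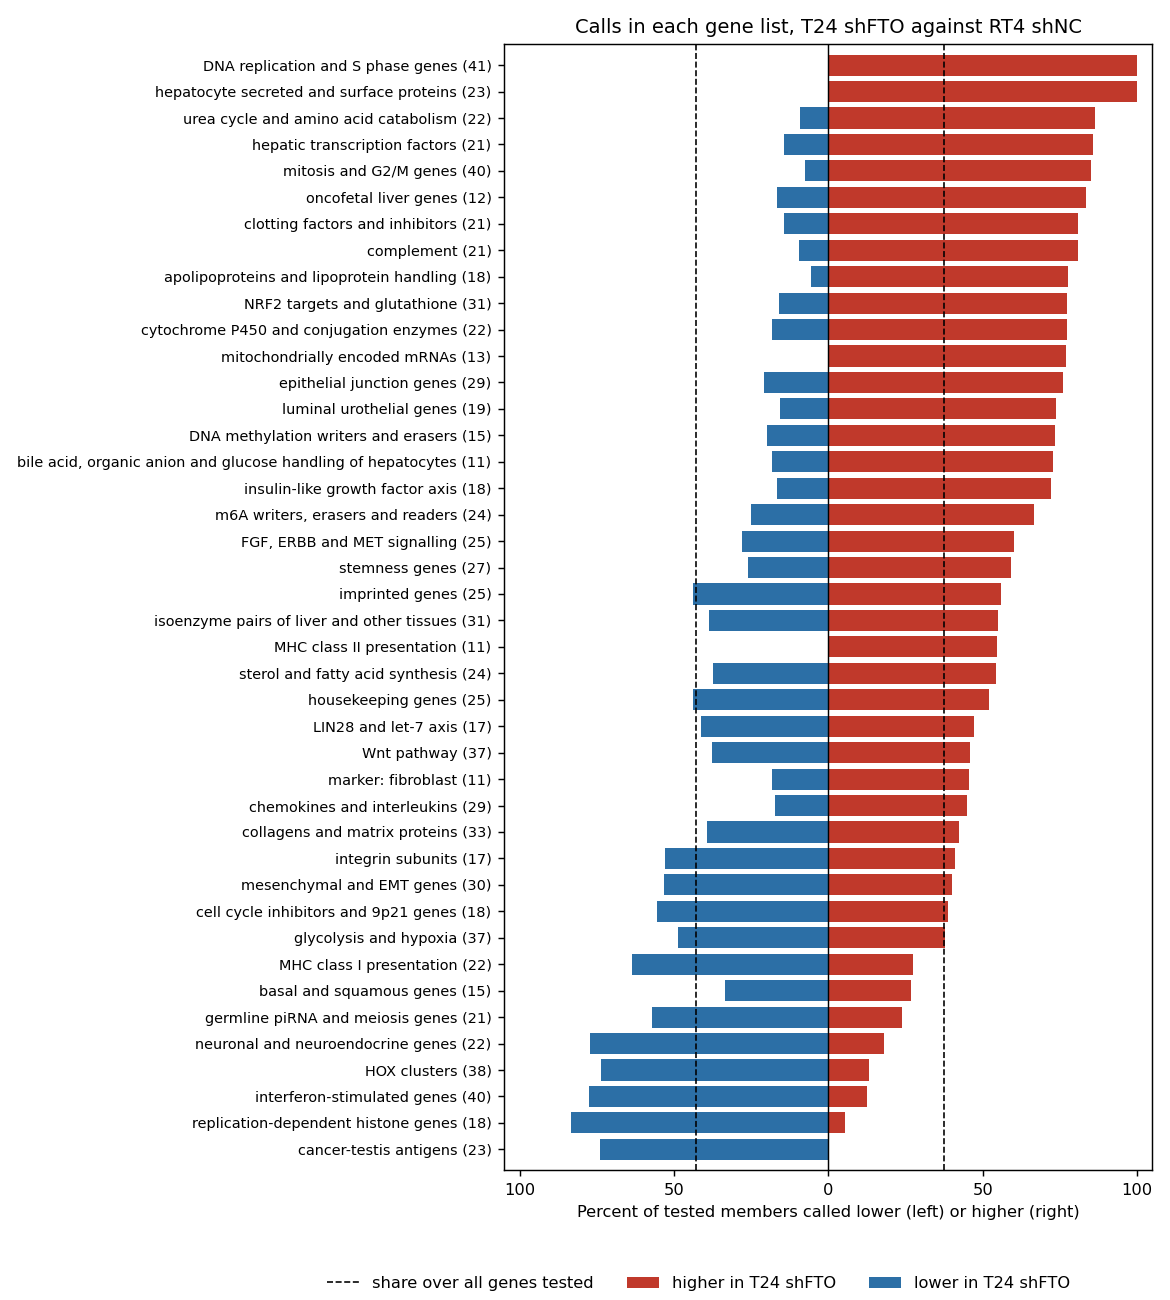
Percent of the tested members of each gene list with at least 10 tested members (number in parentheses) that were called higher (red, right) or lower (blue, left) in T24 shFTO than in RT4 shNC, with dashed lines at 37.4% and 42.8%, the shares over all genes tested. Hepatocyte and DNA replication genes fill the right side, and cancer-testis, histone, interferon-stimulated and HOX genes the left.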

How the data were processed

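Messenger RNA of 12 libraries in 4 groups of 3 had been sequenced, and the deposited table gives whole-number counts per gene and library, without normalization. Per the submitters' processing notes, fastp 0.20.0, STAR 2.7.9a and featureCounts 2.0 were used, and the builds mm39, GRCh38 and hg38 are named with no role. The choice of annotation release, strand setting and multi-mapping rule is not given in the sources used here, so reads of overlapping, antisense or near-identical genes may be misplaced.

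Groups, replicates and batch numbers came from the labels. Genes were kept by edgeR's filterByExpr (23070 of 43557), scaled by TMM and fitted by group over all 12 libraries with edgeR 4.0.16 (glmQLFit and glmQLFTest, R 4.3.3, limma 3.58.1). P-values were adjusted over all genes kept. The replicate numbers equal the batch labels. Deviations of same-numbered libraries from their group means correlated at -0.05, 0.01 and 0.02 over 10876 genes, none above 0.1, and a fit with the number as a block was run as an alternative. Other alternatives were DESeq2 1.42.0, limma-voom, other scalings and filters, thinning to the smallest library, the 6 libraries alone and leaving out each library. Libraries of a group differed by 6.78 to 16.3 times the sampling variance. Fold bounds against a group at 0 counts set 3 counts over the group, and intervals cover counting error only.

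The gene lists and the rule for named genes (FTO, the 10 largest log2 changes and the 10 largest CPM differences each way among called genes with at least 10 CPM in 1 group, and the largest changes and exceptions in each list) were chosen with earlier results of these data known. Positions and promoters are from RefSeq (GRCh38.p14), matched by symbol. Figures were drawn with matplotlib 3.10.9. Some genes of the lists, and a promoter motif that was counted, are not reported here by name.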

Additional observations from a re-analysis of the deposited data

How the results depend on the processing

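The number of genes called ranged from 15647 to 20447 over the alternatives, set mostly by how many genes the filter kept. The log2 change of FTO ranged from -1.06 to -0.80. With the batch number as a replicate block, 18098 genes were called and FTO changed by -0.86 (adjusted p = 4.24e-10, edgeR), and among the genes named here the block ended no call. Leaving out 1 library at a time gave 18127 to 18541 calls. With library totals as the only scaling, the median log2 change of all genes moved by -0.20 and 40.7% of calls were higher, against 46.6%. Under that scaling 8 named genes without a call came out lower, of which WTAP (-0.15), IGF2BP2 (-0.19) and MT-CO1 (-0.15) changed sign, and IGF2BP3 lost its call (0.05). Counts of lower members became 3 in place of 1 for apolipoproteins, 6 in place of 3 for mitosis and 5 in place of 3 for DNA methylation. Other scalings moved the median by at most 0.04. IRS1 lost its call with RLE scaling (-0.05), with DESeq2 (-0.05) and with the 6 libraries alone (-0.06), PKM with the last (-0.09), and UPK2 without T24 shFTO replicate 2 (-1.19). Leaving out T24 shFTO replicate 1 ended 1 call among the named genes and added 1. Calls were also gained by 1 named gene with RLE scaling, 2 with DESeq2 and 1 without RT4 shNC replicate 1. Interferon-stimulated members called higher were 3 in place of 5 with the 6 libraries alone, with thinning and without RT4 shNC replicate 2, and neuronal ones 2 in place of 4 when 1 CPM in 3 libraries was required. The histone count of higher members (1) became 3 without a low-count filter and 0 with the 1 CPM filter, and the erythroid one (1) became 7 and 0. The other counts of list members that moved by more than 1.5 times were of mitochondrially encoded mRNAs and cancer-testis antigens, given above, and of marker lists, each with 1 to 3 members called in that direction. On and off at 5 and 0.05 CPM gave 273 and 183 genes in place of 268 and 164. Depth limits genes near 0: a group of 3 libraries at 0 counts bounds a fold only from 1 side.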

Other observations

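Markers of other cell types were low in both groups, with named exceptions. Fibroblast markers summed to 29.3 to 33.7 CPM in T24 shFTO and 1.41 to 1.905 CPM in RT4 shNC (5 of 11 tested higher, 2 lower), leukocyte markers to 13.7 to 15.7 CPM and 3.67 to 4.28 CPM in those groups (4 of 9 higher, 3 lower). Endothelial markers summed to 5.25 to 6.22 CPM in T24 shFTO and 1.396 to 1.61 CPM in RT4 shNC (2 of 5 tested higher, 1 lower), with CDH5 at 0 counts in T24 shFTO. Erythroid markers summed to 10.7 to 12.4 CPM in T24 shFTO and 35.1 to 36.1 CPM in RT4 shNC (1 of 2 tested higher, 1 lower). The erythroid count of higher members was 7 without a low-count filter, 2 without T24 shFTO replicate 1 or 3 or any 1 RT4 shNC library, and none with a filter of 1 CPM in 3 libraries, with thinning or with the 6 libraries alone. EPOR, the erythropoietin receptor, averaged 10.5 ± 0.9598 CPM in T24 shFTO and 35.7 ± 0.566 CPM in RT4 shNC. Melanocyte markers summed to 2.46 to 2.6996 CPM in T24 shFTO and 4.73 to 4.89 CPM in RT4 shNC (1 of 5 tested higher, 3 lower). Kidney tubule markers summed to 1.86 to 2.07 CPM in T24 shFTO and 12.8 to 14.01 CPM in RT4 shNC (1 of 4 tested higher, 2 lower), with PAX8, a factor of kidney and thyroid, at 0.2502 ± 0.0761 CPM in T24 shFTO and 7.93 ± 0.498 CPM in RT4 shNC. Lung markers summed to 15.5 to 15.8 CPM in T24 shFTO and 0.987 to 1.66 CPM in RT4 shNC (1 of 4 tested higher, 2 lower), with FOXJ1, the regulator of motile cilia, at 14.9 ± 0.188 CPM in T24 shFTO and 0 counts in RT4 shNC. Intestinal markers summed to 488 to 535 CPM in T24 shFTO and 53.98 to 55.4 CPM in RT4 shNC (2 of 3 tested higher, 1 lower). VIL1, the villin of brush borders and bile canaliculi, averaged 499 ± 23.98 CPM in T24 shFTO and 0.0677 ± 0.0684 CPM in RT4 shNC. CDX1, an intestinal regulator, had 0 counts in both groups.

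A few genes joined the groups rather than separated them. With on as at least 10 CPM in all 3 libraries and off as under 0.1 CPM, 7 genes were on in both T24 shFTO and RT4 shNC and off in T24 shNC and RT4 shFTO, across the cell line names. They were LIN28B, MYEF2, ITPRIPL1, the zinc finger genes ZNF135, ZNF518B and ZNF667, and ZNF667-AS1, whose symbol marks it as antisense to ZNF667. MYEF2 averaged 35.4 ± 1.55 CPM in T24 shFTO and 81.9 ± 0.291 CPM in RT4 shNC, and ZNF667 15.3 ± 2.24 CPM in T24 shFTO and 26.3 ± 0.546 CPM in RT4 shNC. Changes were also uneven between chromosomes, among genes at 10 CPM or more in 1 group. The median log2 change was 0.68 on chromosome 22 (192 of 258 genes higher, 53 lower), 0.52 on chromosome 15 and 0.51 on chromosome 17 (439 of 684 higher, 197 lower). It was -0.69 on chromosome 18 (37 of 162 higher, 109 lower) and -0.47 on the X chromosome (112 of 371 higher, 228 lower). No copy number was measured, and its part in these medians was not tested.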
